A study of Mus musculus with 6 samples.

Results

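The imprinted Dlk1-Dio3 region of mouse chromosome 12 holds one of the largest groups of miRNA genes in the genome, and its miRNAs were followed here in extracellular vesicles (EVs). The members were the mature miRNA rows of the count table that start between positions 109450000 and 109760000 of chromosome 12 (mm10). These were 86 of the 902 mature miRNA rows, from 51 hairpins, and 59 of them had the 10 or more counts over all libraries needed for a test, as did 492 mature miRNAs in all. The libraries hold small RNA of EVs from primary cultures of CD1 mice, 3 from cortical astrocytes and 3 from subventricular zone neural stem cells (NSCs), with no transgene or treatment named for either. The cultures were neonatal, with astrocytes taken from dorsal cortices of pups at postnatal day 4, and EVs were the pellet of the last high-speed spin of the culture medium. Astrocyte EVs were collected from medium with 2% fetal bovine serum, and the medium of the NSC cultures was not given in the sources used here. Nothing in the labels says that the 3 libraries of a group came from separate cultures, and every p-value here reflects only how these libraries spread, which may be technical.

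Imprinted genes are expressed from the chromosome of one parent. In this region the protein-coding genes Dlk1, Rtl1 and Dio3 are expressed from the paternal chromosome, and the noncoding RNAs Meg3, Rian and Mirg, together with the miRNAs and the box C/D small nucleolar RNAs, from the maternal one. The miRNAs are abundant in embryo, placenta and brain, where they are known mostly from neurons. A hairpin is cut into a 5p and a 3p strand, called arms, either of which can be loaded into the silencing complex, where bases 2 to 8 of the loaded strand, the seed, select the mRNAs that are repressed.

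The mature sequences of the 10 most abundant members are shown because the results rest on them, in their order along the chromosome and with the seed in capitals. They were taken from RefSeq (GRCm38.p6), which held 82 of the 86 members.
miR-433-3p: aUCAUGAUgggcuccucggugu
miR-127-3p: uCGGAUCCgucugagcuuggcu
miR-434-3p: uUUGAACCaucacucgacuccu
miR-379-5p: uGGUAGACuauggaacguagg
miR-323-3p: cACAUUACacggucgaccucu
miR-300-3p: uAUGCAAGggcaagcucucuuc
miR-382-5p: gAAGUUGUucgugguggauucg
miR-134-5p: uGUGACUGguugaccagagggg
miR-541-5p: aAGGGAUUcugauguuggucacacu
miR-409-3p: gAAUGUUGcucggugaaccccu
Each of these 10 seeds differed from those of the other members with a sequence. miR-541-5p was the longest of them, with 25 bases. The following members shared their seed with another member and are shown for that reason.
miR-379-3p: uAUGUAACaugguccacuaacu
miR-411-3p: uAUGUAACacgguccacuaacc
miR-376c-5p: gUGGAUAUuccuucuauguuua
miR-376b-5p: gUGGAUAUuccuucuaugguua
The first pair differed by U10C and U22C and the second pair by U19G, with the first name of each pair as the reference and positions counted from the 5′ end. Counts of miR-376c-5p (6 over the 6 libraries) and miR-376b-5p (110) could therefore be mixed by reads with a mismatch, and how the authors placed such reads was not given in the sources used here.

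Depth limited what could be seen. The count table held 44620985 to 111851274 counts per library, of which mature miRNAs took 0.212 to 0.538% (177093 to 399211 counts) and the cluster 3032 to 8322 counts. At that depth 3 counts corresponded to 7.51 to 16.9 CPM, which here means per 1000000 mature miRNA counts. Astrocyte EV replicate 3 stood apart from the other astrocyte EV libraries. Its correlation with them across mature miRNAs, on the log2(CPM + 1) scale, was 0.740 and 0.719, while the other astrocyte EV pair had 0.871 and pairs of NSC EV libraries 0.872 to 0.883. Where 1 member's result rests on this library, the value without it is given too. Fewer vesicles that carry an miRNA and fewer copies per vesicle cannot be told apart in these bulk libraries, nor can a different mix of cells in the cultures. Astrocyte marker mRNAs were all present (8 of 8, Gfap included), but their summed level was 15.3 to 33.3 per 1000000 counts of rows other than hairpins in the astrocyte EVs, against 34.6 to 59.2 in the NSC EVs, so the labelled cell type was not visible as a higher sum of these mRNAs. On the same scale Gfap, the astrocyte intermediate filament, was at 1.04, 1.48 and 4.05 in astrocyte EVs and at 0.691, 1.15 and 0.613 in NSC EVs, with overlap. Slc1a2, the glutamate transporter of astrocytes and the most abundant of the list, was at 9.69, 13.0 and 14.1 against 24.3, 27.7 and 43.6.

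The cluster took a similar share of the mature miRNA counts in both EV types, but that share was divided differently among its miRNAs. In astrocyte EVs the share was 2.58% (95% Wilson interval 2.51 to 2.66), 2.05% (1.99 to 2.11) and 2.08% (2.04 to 2.13), with a mean of 2.24 ± 0.300% (SD, n = 3). In NSC EVs it was 2.43% (2.37 to 2.49), 1.92% (1.86 to 1.98) and 1.71% (1.65 to 1.77), with a mean of 2.02 ± 0.370% (SD, n = 3). The groups overlapped, and the difference of the means was smaller than either SD. These intervals cover counting error only. With red blood cell miRNAs left out of the mature counts the means lay further apart, at 2.47% in astrocyte EVs and 2.03% in NSC EVs.

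Inside that total, miR-541-5p and miR-127-3p carried most of the cluster in astrocyte EVs. Together they took 71.4, 59.9 and 69.0% of cluster counts in the astrocyte EV libraries and 26.8, 24.4 and 27.0% in the NSC EV libraries. Which of them led depended on the library. miR-127-3p took 49.9 and 41.3% in astrocyte EV replicates 1 and 2 and 6.43% in replicate 3, where miR-541-5p took 62.6%. In NSC EVs miR-541-5p led as well, with 21.2 to 24.5%, but was followed by miR-382-5p with 16.9 to 20.7%. The remaining 84 members took 0.740, 0.822 and 0.647% of mature counts in astrocyte EVs and 1.78, 1.45 and 1.25% in NSC EVs. These groups did not overlap, but the pair left out was chosen after its values were seen, so the difference is a description without a test.

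**Figure D1:**
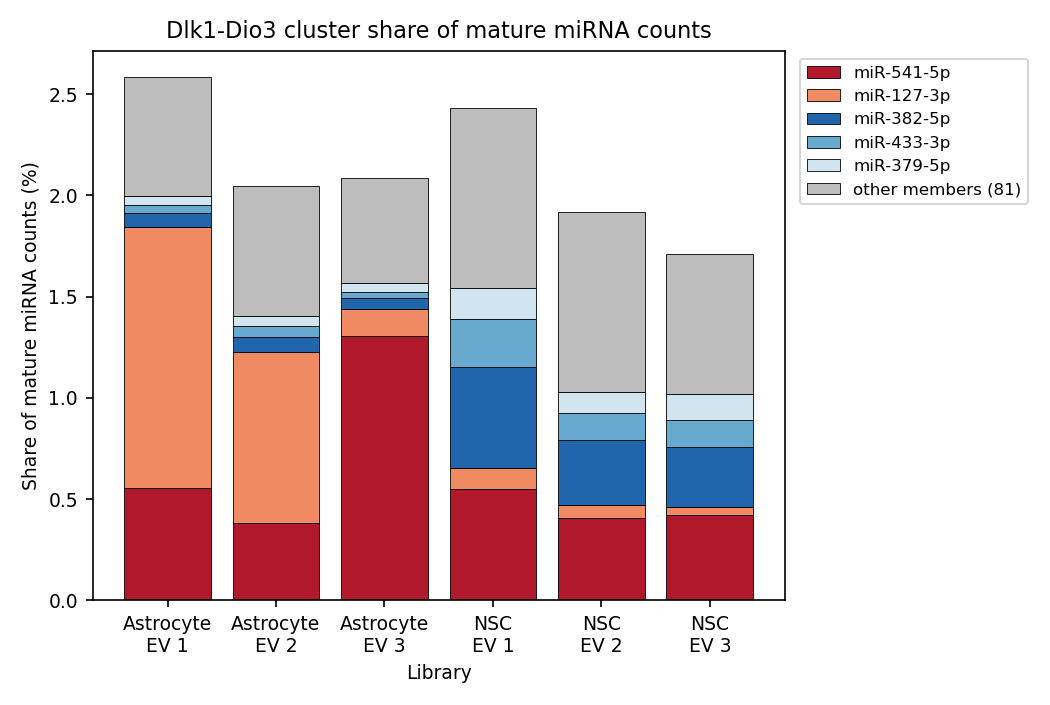
Share of mature miRNA counts (%) taken by the Dlk1-Dio3 cluster in each of the 6 libraries, with the 5 most abundant members in colour and the other 81 in grey. The total lies between 1.71 and 2.58% in every library, while miR-127-3p (orange) fills much of astrocyte EV replicates 1 and 2 and miR-541-5p (red) most of replicate 3.

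In edgeR's quasi-likelihood test, 4 of the 59 members (6.78%) passed an adjusted p of 0.05, 1 of them higher in astrocyte EVs and 3 lower. Of all mature miRNAs tested 25.4% were called (13.6% higher and 11.8% lower). Library sizes taken from all rows other than hairpins moved the split to 1 higher and 9 lower among members, and from 67 and 58 to 31 and 92 among all mature miRNAs. Without astrocyte EV replicate 3, 2 members were higher and 5 lower, and 86 and 80 of all mature miRNAs. Fold changes are given as astrocyte EV minus NSC EV on the log2 scale, and levels of members and other tested miRNAs as CPM after TMM scaling. Sums of marker miRNAs and the level of 3 counts are CPM without TMM. The fold changes lay above 0 for 29 members and below 0 for 30, with a median of -0.08 against 0.24 over all mature miRNAs tested. The 4 members with no NSC EV count stayed above the members' median with 3 counts put in for that group, so placing them there could not change it. Groups did not overlap for 20 of the 59 members (33.9%, of which 6 were above in astrocyte EVs and 14 in NSC EVs), and for 45.1% of all mature miRNAs tested. An unadjusted p under 0.05 was reached by 11 members (18.6%, against 38.2% of all).

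miR-127-3p, which lies antisense to Rtl1 and is known to repress Rtl1 in placenta, was the member that rose. It comes from chr12:109592888-109592909 on the plus strand, inside an exon of Rtl1, which is on the minus strand. Its level was 13618, 9618 and 1481 CPM in astrocyte EVs and 908, 530 and 423 CPM in NSC EVs. Every astrocyte EV library was above every NSC EV library, but replicate 3 was much nearer to the NSC EV libraries than replicates 1 and 2 were. The fitted difference was 3.73 on the log2 scale (SE 0.77, adjusted p = 0.00694, edgeR), and it ranged from 3.09 to 4.22 with each library left out. Without NSC EV replicate 2 the adjusted p was 0.0885. The summed level of 5 miRNAs of mesenchymal cells (miR-143-3p, miR-145a-5p, miR-199a-3p, miR-199a-5p and miR-214-3p) moved with it, at 106396, 93170 and 5273 CPM in astrocyte EVs and 2142, 1091 and 785 CPM in NSC EVs. The sum for 5 mesenchymal mRNAs did not separate the groups (10.4 to 14.3 and 8.99 to 12.1 per 1000000 counts of rows other than hairpins). Within it, Col1a2 was higher in astrocyte EVs without overlap (6.81, 9.52 and 6.15 against 1.38, 3.53 and 1.60). Col3a1 was lower without overlap (1.45, 1.90 and 1.02 against 4.75, 3.51 and 4.45), and Dcn, Col1a1 and Lum overlapped. The part of these mesenchymal RNAs in the miR-127-3p result was not tested.

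The neighbour on the 5′ side went the other way. miR-433-3p, at chr12:109591781-109591802, also antisense to an exon of Rtl1, had 417, 646 and 313 CPM in astrocyte EVs and 2088, 1111 and 1332 CPM in NSC EVs. All astrocyte EV libraries were below all NSC EV libraries. The fitted difference was -1.72 on the log2 scale (SE 0.49, adjusted p = 0.0287, edgeR), and the call was lost without astrocyte EV replicate 1, NSC EV replicate 1 or NSC EV replicate 2 (largest adjusted p = 0.0868). The mature rows of miR-433-3p and miR-127-3p are 1085 bases apart. Between them the ratio of miR-127-3p to miR-433-3p counts, which no library scaling touches, was 32.6, 14.9 and 4.73 in astrocyte EVs and 0.435, 0.477 and 0.318 in NSC EVs. This pair of neighbours was chosen after their values were seen, and the ratio is given without a test.

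miR-382-5p, at chr12:109733781-109733802 in the distal group, was called lower in astrocyte EVs in every setting run on mature rows. Its level was 736, 841 and 626 CPM in astrocyte EVs and 4426, 2808 and 2929 CPM in NSC EVs. The 2 groups were far apart and the astrocyte EV libraries, replicate 3 included, close to one another. The fitted difference was -2.21 on the log2 scale (SE 0.42, adjusted p = 0.00562, edgeR), from -2.61 to -2.09 with each library left out and with an adjusted p of at most 0.0368. The sum of 3 neuron miRNAs (miR-124-3p, miR-128-3p and miR-137-3p) was also low in astrocyte EVs, at 302, 329 and 110 CPM against 11219, 19400 and 10864 CPM in NSC EVs, and miR-124-3p, which marks neurons, was at 0 counts throughout the astrocyte EVs, which allows up to 16.5 CPM, and at 41 to 157 counts in NSC EVs. Neuron mRNAs summed to 71.6 to 157 per 1000000 counts of rows other than hairpins in the astrocyte EVs, against 249 to 389 in the NSC EVs. Rbfox3 made up most of that gap, at 30.9, 71.0 and 72.8 against 302, 212 and 188. Dcx, a small part of the sum, did not overlap either (0.666, 1.23 and 2.22 against 2.55, 4.27 and 2.93). Syt1, Stmn2, Tubb3 and Snap25 overlapped. The part of these neuron RNAs in the lower members was not tested.

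miR-487b-3p, at chr12:109727382-109727403, was the least abundant member that passed the test. It had 4, 27 and 6 counts in astrocyte EVs and 83, 108 and 74 counts in NSC EVs (23, 147 and 17 against 281, 458 and 418 CPM), with no overlap. The fitted difference was -2.65 on the log2 scale (SE 0.85, adjusted p = 0.0464, edgeR), just past the threshold, and it ranged from -4.27 (without astrocyte EV replicate 2) to -2.17 with each library left out. It was no longer called without astrocyte EV replicate 1 or any 1 NSC EV library (largest adjusted p = 0.111).

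**Figure D2:**
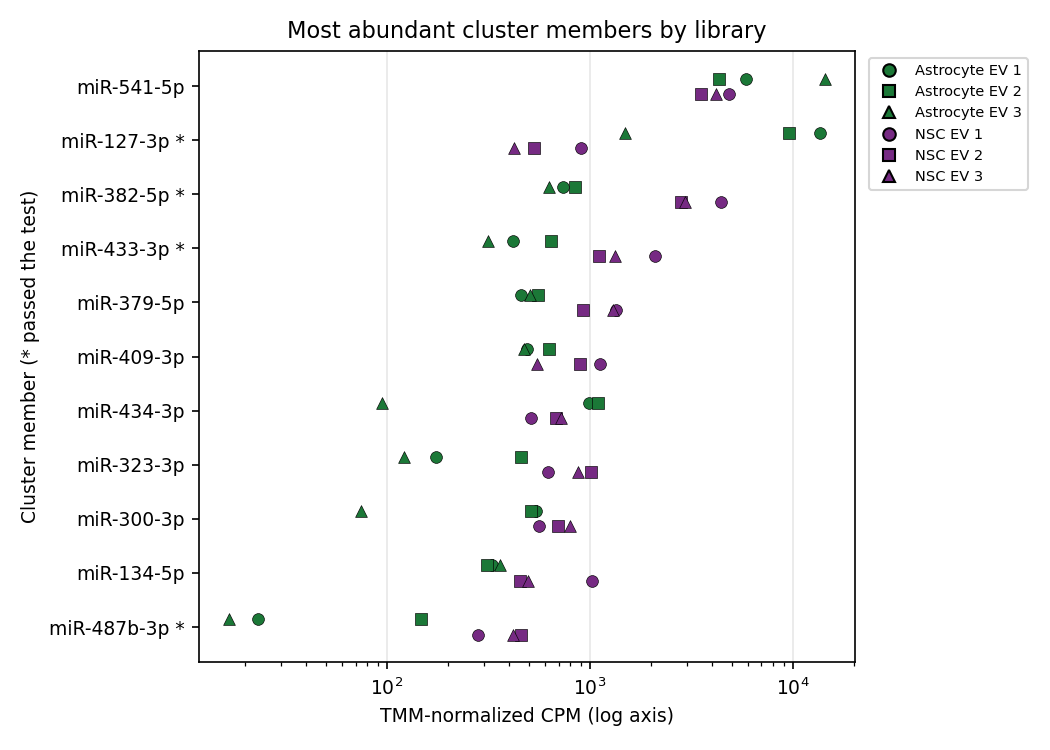
TMM-normalized CPM (log axis) of the 10 most abundant members and miR-487b-3p, with a point for each library. Green symbols are astrocyte EVs, purple ones NSC EVs, and asterisks mark members that passed the test. miR-127-3p lies to the right in astrocyte EVs, miR-382-5p, miR-433-3p and miR-487b-3p lie to the left, and for miR-434-3p and miR-300-3p astrocyte EV replicate 3 is far below the other 5 libraries.

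The most abundant member of all, miR-541-5p, did not pass the test. It comes from chr12:109742422-109742446 and had 5855, 4315 and 14415 CPM in astrocyte EVs and 4819, 3516 and 4193 CPM in NSC EVs. The groups overlapped and replicate 3 alone was far above the rest, with 5206 counts. With all libraries the log2 fold change was 0.97 (adjusted p = 0.181, edgeR), and without replicate 3 it was 0.28. The ratio of miR-541-5p to miR-382-5p counts, another pair chosen after its values were seen, was 7.95, 5.13 and 23.0 in astrocyte EVs and 1.09, 1.25 and 1.43 in NSC EVs.

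The other abundant members gave values that missed the threshold. miR-379-5p (chr12:109709065-109709085), the first hairpin of the distal group, had 458, 554 and 504 CPM against 1339, 929 and 1298 CPM, without overlap, and a log2 fold change of -1.23 (adjusted p = 0.0612, edgeR). miR-323-3p (chr12:109712558-109712578) had 174, 456 and 122 CPM against 624, 1009 and 869 CPM, again without overlap, and -1.74 (adjusted p = 0.0608, edgeR). Both were close to the threshold, and of 15 other settings 8 called miR-379-5p lower and 11 miR-323-3p. miR-134-5p (chr12:109734145-109734166), known to limit the growth of dendritic spines by repressing Limk1, had 330, 309 and 360 CPM against 1027, 454 and 497 CPM and -0.98 (adjusted p = 0.177, edgeR). miR-409-3p (chr12:109743204-109743225) had 487, 630 and 471 CPM against 1115, 895 and 547 CPM, with overlap, and -0.69 (adjusted p = 0.310, edgeR).

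In the remaining abundant members 1 astrocyte EV library, replicate 3, stood far from the others. miR-434-3p (chr12:109594565-109594586), another miRNA antisense to Rtl1, had 991, 1091 and 94 CPM in astrocyte EVs and 515, 683 and 717 CPM in NSC EVs. Its log2 fold change of 0.18 (adjusted p = 0.874, edgeR) took a negative sign under most other settings, DESeq2 and median-ratio scaling included, and was 0.71 without replicate 3. miR-300-3p (chr12:109724363-109724384) had 545, 510 and 75 CPM in astrocyte EVs and 563, 700 and 796 CPM in NSC EVs, without overlap, and its log2 fold change was -0.87 with all libraries (adjusted p = 0.385, edgeR) and -0.38 without replicate 3. In both, replicate 3 was the low library, whereas for miR-370-3p (chr12:109618305-109618326), named after its values were seen, it was the high one. That miRNA had 226, 136 and 1490 CPM in astrocyte EVs and 217, 85 and 124 CPM in NSC EVs, and its log2 fold change was 2.12 with all libraries (adjusted p = 0.113, edgeR) and 0.34 without replicate 3.

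Along the chromosome, the members fell into 4 segments when split at gaps of 10 kb or more. The first held only miR-1906, in an exon of Meg3, with 1 count over the 6 libraries, and RefSeq gives its sequence at 2 places. The second ran from miR-770-5p to miR-136-3p (chr12:109563710-109595387) and held 24 members from 14 hairpins, 11 of them antisense to an exon of Rtl1. The third, from miR-341-5p to miR-370-3p (chr12:109611521-109618326), held 5 members in introns of Rian. The fourth, from miR-379-5p to miR-410-3p (chr12:109709065-109743784), held 56 members from 33 hairpins, 21 of which overlap Mirg in GENCODE vM21 (13 in introns and 8 in exons).

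Fold changes of both signs occurred in each tested segment. In the segment that overlaps Rtl1, 11 of 19 tested members lay above 0 and 8 below, with a median log2 fold change of 0.20, 1 member higher and 1 lower by the test. In the Rian segment 4 of 5 lay above 0, with 0 of 5 called by edgeR or by DESeq2 and 1 of 5, miR-370-3p, at an unadjusted p under 0.05 in edgeR. In the distal segment 14 of 35 lay above 0 and 21 below, with a median of -0.25, and 2 were lower. The share of cluster counts from the segment that overlaps Rtl1 was 60.0, 54.7 and 14.0% in astrocyte EVs and 23.6, 20.1 and 20.9% in NSC EVs. The distal segment gave 38.7, 44.6 and 79.0% in astrocyte EVs and 74.9, 79.2 and 77.8% in NSC EVs. Astrocyte EV replicates 1 and 2 were thus weighted to the segment that overlaps Rtl1, while replicate 3 lay among the NSC EV libraries in its distal share. The groups overlapped in the share of each segment.

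**Figure D3:**
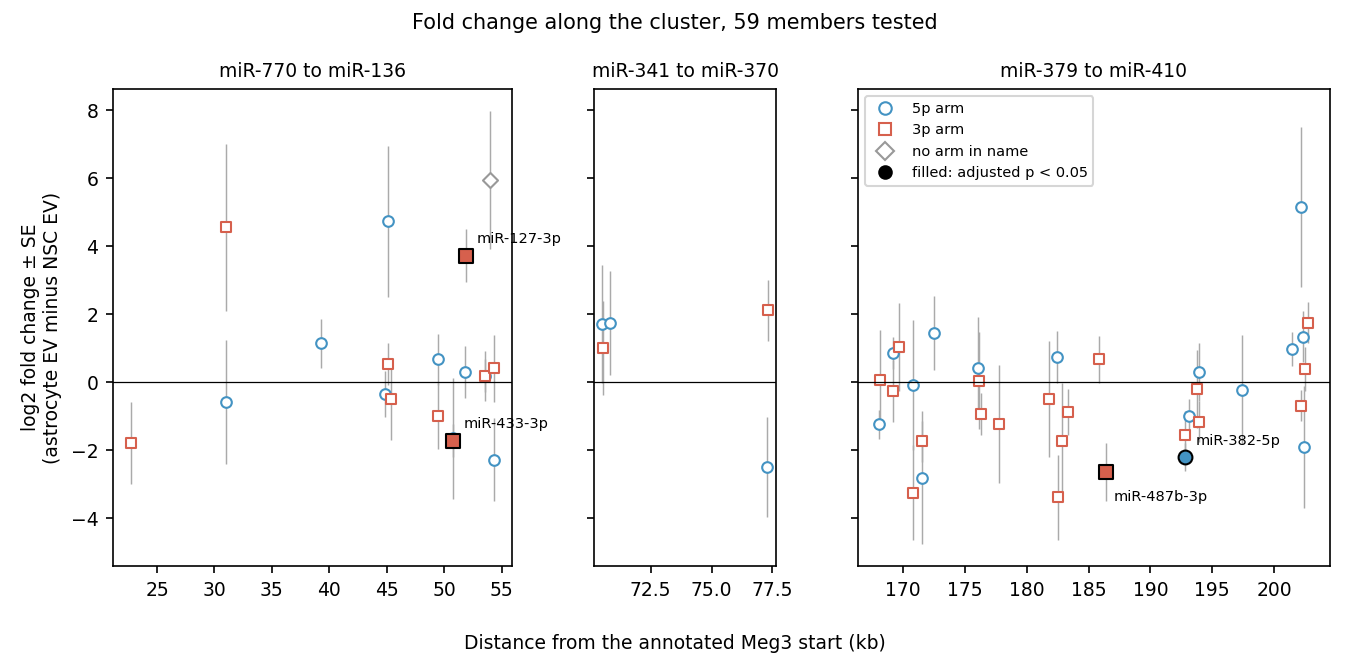
log2 fold change (astrocyte EV minus NSC EV, with SE) of the 59 tested members against distance from the annotated Meg3 start in kb, in the 3 segments with tested members, by arm and with filled symbols for the 4 members past the test. miR-127-3p (3.73) and miR-433-3p (-1.72) lie side by side on opposite sides of 0, and the 4 members with no count in NSC EVs have fitted values that depend on the prior count.

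The less abundant members gave few counts. The 27 untested members had 1 to 9 counts each and 87 of the 30566 cluster counts together. At least 1 count was found for 50 to 65 members per library and for 34 members in all 6 libraries, and 10 or more counts in every library for 20. The members with 0 counts in all NSC EV libraries were miR-432, miR-540-5p, miR-673-3p and miR-409-5p, with 30, 11, 12 and 10 counts in astrocyte EVs. All 12 counts of miR-673-3p came from astrocyte EV replicate 3, so none was left without it. miR-540-5p had 3, 0 and 8 counts in astrocyte EV replicates 1, 2 and 3. With 3 counts put in for the NSC EV group, miR-432 was 8.10-fold higher in the pooled astrocyte EV counts, 26 of 30 of them from replicate 3. It did not pass the test (adjusted p = 0.0703, edgeR). Without replicate 3 the pooled value was 2.18-fold, on 4 counts. Neither value takes account of the spread between libraries, so neither is a lower limit. The hairpin row of mir-432 had 2 counts in NSC EV replicate 2. No tested member had 0 counts in all astrocyte EV libraries. Among members outside the rule for named miRNAs, miR-410-3p, the last hairpin of the cluster, had 45, 48 and 75 counts in astrocyte EVs and 20, 25 and 7 in NSC EVs and had the lowest adjusted p of those above 0 that missed the threshold (log2 fold change 1.76, adjusted p = 0.0592, edgeR).

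By arm, 3p strands made up 45 members and 5p strands 39, while 2 names gave no arm. Of 31 tested 3p members, 1 was higher and 2 lower (median log2 fold change -0.49), and of 27 tested 5p members, 0 were higher and 1 lower (median 0.29). At an unadjusted p under 0.05 in edgeR 0 of the 5p members were higher and 2 lower, and DESeq2 called 0 higher and 2 lower at an adjusted p under 0.05. Of the 32 hairpins with both strands in the table and 10 or more counts over both, the 3p strand was the larger in 19 and the 5p strand in 12. The arm that led in a hairpin could be compared between EV types in 20 hairpins with 10 or more counts over both strands in every library. The share of the 3p strand separated the groups without overlap in 4 of them, and in none past an adjusted p of 0.05. Of all 92 hairpins of the table that met the same minimum, 31.5% did so. By an exact two-sided permutation test each of the 4 had p = 0.1, the smallest that 3 libraries against 3 allow, and an adjusted p = 0.5 over the 20 hairpins.

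Those hairpins are given as values. For mir-376b and mir-370, with the largest differences, and for mir-127, the hairpin of the member that rose, the RefSeq hairpin is shown with both mature strands in capitals, so that the competing strands can be read, 5p first.
mir-376b: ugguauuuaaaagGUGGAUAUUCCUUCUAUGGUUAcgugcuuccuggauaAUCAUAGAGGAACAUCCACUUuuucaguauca
mir-370: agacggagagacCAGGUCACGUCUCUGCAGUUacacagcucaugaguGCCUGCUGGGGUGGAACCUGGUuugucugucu
mir-127: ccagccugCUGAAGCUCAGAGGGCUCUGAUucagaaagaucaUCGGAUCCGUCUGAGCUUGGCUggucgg
They lie at chr12:109723458-109723539, chr12:109618258-109618336 and chr12:109592846-109592915 of GRCm38.p6, on the plus strand. In mir-376b, the 3p strand took 10.3, 3.45 and 0% of counts in astrocyte EVs (4.60 ± 5.27, SD, n = 3) and 59.6, 46.4 and 53.8% in NSC EVs (53.3 ± 6.59, SD, n = 3). These shares rest on 10 to 47 counts per library, and the highest astrocyte EV share had a 95% Wilson interval of 3.58 to 26.4% and the lowest NSC EV share one of 29.5 to 64.2%. The 0% of astrocyte EV replicate 3 is 0 of 10 counts, with an upper bound of 27.8%. miR-376b-5p itself had 26, 28 and 10 counts in astrocyte EVs and 19, 15 and 12 in NSC EVs, while miR-376b-3p had 3, 1 and 0 against 28, 13 and 14 counts. The 5p counts thus overlapped and the 3p counts did not.

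In mir-370 the 3p strand took 100, 100 and 98.7% of counts in astrocyte EVs and 75.3, 80.0 and 75.9% in NSC EVs, on 25 to 545 counts per library, and the lowest interval in astrocyte EVs (86.7 to 100%) overlapped the highest in NSC EVs (60.9 to 91.1%). In mir-127 it took 98.8, 99.6 and 96.1% in astrocyte EVs (98.1 ± 1.86, SD, n = 3) and 90.5, 88.7 and 89.3% in NSC EVs (89.5 ± 0.961, SD, n = 3). The minor strand miR-127-5p had 29, 7 and 22 counts in astrocyte EVs and 28, 16 and 9 in NSC EVs, with a log2 fold change of 0.30 (adjusted p = 0.799, edgeR) beside the 3.73 of miR-127-3p. The partner of miR-382-5p, miR-382-3p, was at -1.57 (adjusted p = 0.139, edgeR), in the same direction as miR-382-5p, and that of miR-433-3p, miR-433-5p, at -1.65 on 10 counts in all (adjusted p = 0.554, edgeR). The fourth hairpin was mir-485, known for a strand that represses the synaptic vesicle protein SV2A, with 58.8, 71.4 and 55.6% on the 3p strand in astrocyte EVs and 88.5, 79.5 and 72.7% in NSC EVs. In mir-434 the arm that led changed in 1 library: the 3p share was 71.8, 76.4 and 23.4% in astrocyte EVs and 58.2, 71.2 and 73.8% in NSC EVs.

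**Figure D4:**
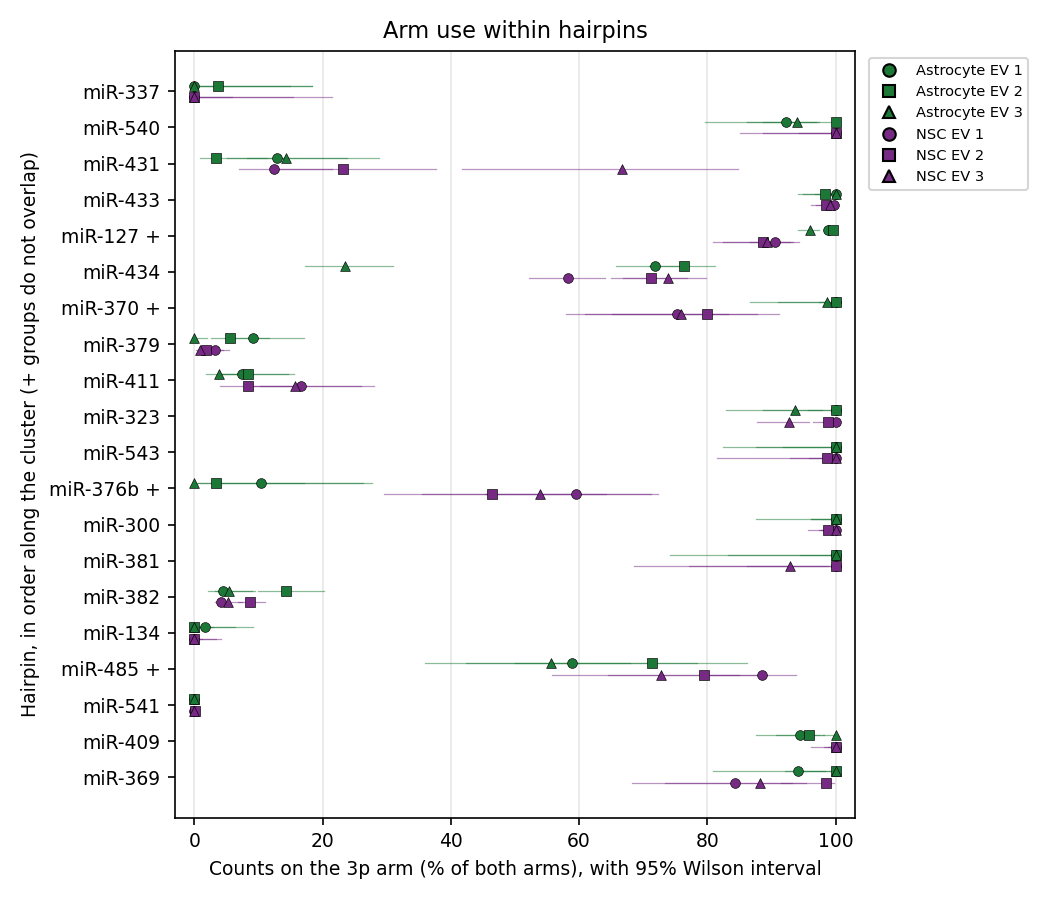
Counts on the 3p strand as a percentage of both strands in each library, with the 95% Wilson interval, for the 20 hairpins with 10 or more counts in every library, in order along the cluster (green symbols are astrocyte EVs, purple ones NSC EVs). In most hairpins all 6 libraries sit at the same end of the axis, while mir-376b lies at 0 to 10.3% in astrocyte EVs and at 46.4 to 59.6% in NSC EVs.

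The other transcripts of the region were counted in 30 rows, 28 with enough counts for a test over all 49800 rows other than hairpins, of which 7.55% were called (4.37% higher and 3.18% lower). Of the 28, 1 was higher and 1 lower. Counts of these rows are raw, and the astrocyte EV libraries were deeper. They held 72068913 to 111276337 counts of rows other than hairpins, against 44218109 to 50585031 in NSC EVs. Without TMM, 0 of the 28 were higher and 5 lower, and over all rows 723 were higher and 3154 lower, against 2178 and 1583 with it. Begain, a neighbour of Dlk1 that codes for a protein of the postsynaptic density, was higher in astrocyte EVs, with 545, 734 and 744 counts against 112, 248 and 145 (log2 fold change 1.82, SE 0.44, adjusted p = 0.0423, edgeR), a call that was lost without TMM (1.10, adjusted p = 0.297) and without either of astrocyte EV replicates 1 and 2 or of NSC EV replicates 1 and 3 (largest adjusted p = 0.131). Meg3, the noncoding RNA at the start of the maternal unit, had 287, 599 and 230 counts against 169, 256 and 270 (log2 fold change 0.60, adjusted p = 0.551, edgeR). Rian, a host of small nucleolar RNAs, had 173, 215 and 939 counts against 428, 308 and 337. On the per-1000000 scale it was at 2.02, 2.98 and 8.44 against 8.96, 6.97 and 6.66. Of the Rian counts, 60, 33 and 594 in astrocyte EVs and 99, 27 and 40 in NSC EVs were counts of hairpins inside it. Its row ends at position 109661711, before the called small nucleolar RNA row described below. The row antisense to Rtl1, with 2844, 2370 and 1055 counts against 1388, 786 and 1103, held the counts of 6 hairpins. They gave 88.1 to 96.3% of it in astrocyte EVs, 93.7 and 90.2% in NSC EV replicates 1 and 2, and 47.5% in NSC EV replicate 3, so most of its counts outside that library repeat those of the miRNAs. Dlk1, an inhibitor of Notch signalling and adipocyte differentiation, had 36, 42 and 61 counts against 24, 42 and 14, and Dio3, the enzyme that inactivates thyroid hormone, 7, 9 and 24 against 11, 14 and 13, and neither passed the test. Mirg was not analysed here.

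The small nucleolar RNAs of the region gave 1 lower row by the test. Box C/D small nucleolar RNAs guide the methylation of other RNAs, but those of this region have no settled target. Of 12 tested SNORD113 rows, 10 had a log2 fold change below 0 (median -2.65) and 1 was lower by the test, against 28.3% called in either direction among all box small nucleolar RNA rows. The median over all rows other than hairpins was -0.05. That of all box small nucleolar RNA rows was not taken, so a drop particular to this region was not tested. That row, at chr12:109680800-109680874, had 7, 29 and 16 counts in astrocyte EVs and 314, 133 and 94 in NSC EVs (log2 fold change -3.65, SE 0.68, adjusted p = 0.0223, edgeR), a call that was lost without astrocyte EV replicate 1 or 2 (adjusted p = 0.0719 and 0.0607). The 14 SNORD113 rows of the region summed to 66, 105 and 127 counts in astrocyte EVs and 552, 215 and 246 in NSC EVs, or 0.771, 1.46 and 1.14 against 11.6, 4.86 and 4.86 per 1000000 counts of rows other than hairpins. The sums did not overlap, unlike those of the miRNAs. These rows are copies of one family, and how reads shared among them were counted was not given in the sources used here.

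Other imprinted miRNA loci gave 18 tested miRNAs, of which 1 was higher and 1 lower (25.4% of all mature miRNAs were called), with a median log2 fold change of 0.80. miR-483-5p, in an intron of the paternally expressed growth factor gene Igf2, was higher, with 75, 78 and 18 counts in astrocyte EVs and 1, 0 and 2 in NSC EVs. The fitted difference was 5.92 on the log2 scale (SE 1.19, adjusted p = 0.00659, edgeR), and as with miR-127-3p, replicate 3 was the lowest of the astrocyte EV libraries. miR-335-5p, in an intron of the paternally expressed gene Mest, was lower, with 0, 4 and 29 counts against 123, 293 and 153 (log2 fold change -4.51, SE 1.03, adjusted p = 0.0110, edgeR). miR-298-5p, the most abundant of them, had 2794, 4168 and 2952 CPM against 5500, 3393 and 5406 CPM, with overlap (log2 fold change -0.53, adjusted p = 0.367, edgeR). Of 11 tested miRNAs inside Sfmbt2, 0 were called by edgeR, 0 by DESeq2 and 0 had an unadjusted p under 0.05 in edgeR. They had only 12 to 49 counts each, and miR-669a-5p and miR-669p-5p had the same counts in every library. These 11 are part of the 18 behind the median above, and 10 of them lay above 0.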

How the data were processed

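The authors deposited whole-number counts for 61949 annotated rows, 1 column per library and not normalized. The submitters' processing notes name mm10, bedtools, Bowtie, Bowtie2, cutadapt, DESeq, FastQC and SAMtools without versions; multiple mapping and strand are not given in the sources used here. The paper names an Illumina kit and HiSeq, and the series record a CleanTag kit and NextSeq. The authors' tables of scaled means, fold changes and adjusted p-values were not used. Libraries were grouped by their labels.

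Mature rows with 10 or more counts over the 6 libraries were tested with edgeR 4.0.16 in R 4.3.3 (TMM, quasi-likelihood test, group as the only term, Benjamini-Hochberg over 492 miRNAs). TMM factors ran from 0.881 to 1.16 and the biological coefficient of variation was 0.778. Replicates differed by more than counting noise (chi-square per degree of freedom at least 20.7). Each SE is the absolute log2 fold change divided by the square root of the F statistic of the test, not an SE reported by edgeR. Rows other than hairpins were tested alike. Hairpin rows repeat mature reads. Named miRNAs were the 10 of highest mean CPM and every member past the test, and others are named as chosen after their values were seen. Members and lists were chosen with earlier results of these data known. Positions were annotated with GENCODE vM21. Alternatives included DESeq2 1.42.0, other scalings and filters, and leaving out each library. Scripts were tested on simulated data. Python 3.11.15 was used for the other steps.

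Marker lists with no value in the text above were red blood cell miRNAs (22469 to 81130 CPM in the astrocyte group and 1017 to 1884 CPM in the NSC group), white blood cell and microglia miRNAs (187 to 668 and 27.0 to 63.9 CPM), endothelial miRNAs (55.1 to 181 and 853 to 1988 CPM) and neural progenitor mRNAs (9.73 to 28.2 and 19.4 to 29.6 per 1000000 counts of rows other than hairpins). Most of the red blood cell sum in the astrocyte group was miR-486a-5p (21859, 37685 and 80471 CPM). In the same libraries miR-451a was at 423, 764 and 381 CPM.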

Additional observations from a re-analysis of the deposited data

How the results depend on the processing

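Members called higher and lower were 1 and 3 in the reported test, 3 and 8 with DESeq2, 1 and 5 without TMM and with median-ratio scaling, 1 and 9 with library sizes from all rows other than hairpins, 2 and 6 with edgeR's default filter (34 members), 2 and 5 with a minimum of 1 count (86 members) or 100 counts (27 members), 1 and 5 with hairpin rows (40 tested) and with rows of identical counts taken once. With each library left out, 0 to 2 were higher and 1 to 6 lower (1 and 1 without NSC EV replicate 1, 0 and 1 without replicate 2 of that group, 2 and 5 without astrocyte EV replicate 3, 1 and 6 without replicate 2 and 2 and 2 without replicate 1). miR-382-5p was called lower in all of these with mature rows, and miR-127-3p higher in all but the fit without NSC EV replicate 2. The cause of these changes was not tested. The median log2 fold change over all mature miRNAs was 0.24 with TMM, -0.03 without and -0.65 with library sizes from all rows other than hairpins. miR-434-3p turned to -0.11 with DESeq2 and with median-ratio scaling, -0.082 without TMM, -0.88 with library sizes from all other rows, -0.066 with the default filter, -0.10 with a minimum of 100 counts, -0.14 with identical rows once, and ran from -0.24 to 0.71 with each library left out.

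Pairing of the libraries by replicate number was not seen: deviations from the group means correlated at -0.0173, 0.0950 and 0.0237 between libraries of the same number. Other pairs ran from -0.0777 to 0.0516. With 3 libraries a group these values cannot exclude a shared preparation. With the number as a replicate block, 1 member was higher and 5 lower, miR-434-3p was at -0.27, and 0 other transcripts of the region were higher and 1 lower.

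For the other transcripts (1 and 1), DESeq2 gave 2 and 3, no TMM 0 and 5, and leaving out each library 0 to 2 higher and 0 to 1 lower, with 0 of either without astrocyte EV replicate 1 or 2, where calls over all 49800 rows fell from 2178 and 1583 to 215 and 78 or 47 and 15. Hairpins whose arm shares did not overlap were 1 of 9 with 50 or more counts in every library, and 4 to 7 of 20 with each library left out. As a share of all rows other than hairpins the cluster took 0.00631% in astrocyte EVs and 0.00935% in NSC EVs. Its share of mature counts ran from 2.07 to 2.33% and from 1.82 to 2.18% with each library left out. At 3 libraries a group and these counts, a difference that missed the threshold was not shown to be absent.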
